A study of Rattus norvegicus with 12 samples.

Results

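In kidneys of young stroke-prone spontaneously hypertensive (SHRSP) rats, 677 of 15396 autosomal promoter regions (4.4%) had a lower methylation signal on all 3 mLP-CN arrays than on any of the other 9 arrays of the study. The mLP-CN animals were born to protein-restricted dams and fed the control diet after weaning. Regions were formed from neighbouring probes of a promoter array, with a new region wherever probe starts lay more than 1000 bp apart and with at least 3 probes in each. The regions were chosen by measured values: the value of a region on an array was the mean, over its probes, of the log2 ratio in the authors' processed table, and the members are all regions in which no mLP-CN value overlapped the values of mCN-CN, mLP-LP and mLP-HP. The same values that chose the regions therefore fix the direction of every comparison of mLP-CN with another group, and these comparisons are given as a description without a test. By the mirrored rule, 399 regions (2.59%) were highest in mLP-CN. The same rule for the other groups gave 618 regions lowest (4.01%) and 807 highest (5.24%) in mLP-HP, 179 lowest in mCN-CN (1.16%) and 91 lowest in mLP-LP (0.591%).

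The array compares 4 groups of 3 male offspring samples at 6 weeks of age. mCN-CN offspring had dams on the control diet (CN, 20% casein) in pregnancy and were themselves given CN. In the other groups the dams received a low-protein diet (LP, 9% casein) in pregnancy, and the offspring were given CN (mLP-CN), LP (mLP-LP) or a high-protein diet with 40% casein (mLP-HP) from day 28 after birth. All dams and pups were on CN between delivery and day 28, and all rats were of the SHRSP strain, so no normotensive strain stands beside them. No array of offspring from CN-fed dams on a changed diet was used here, so the postnatal diets can be compared after maternal restriction but not apart from it. The replicates carry different numbers, 1 to 3 in mCN-CN, 4 to 6 in mLP-CN, 7 to 9 in mLP-HP and 10 to 12 in mLP-LP. The labels do not state that the samples came from separate animals or litters, so p-values measure the spread between these arrays.

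Methylation of cytosine in CpG dinucleotides is copied to the new DNA strand at cell division, and in promoters a high density of it commonly goes with low transcription. Many promoters lie in CpG islands, which are largely unmethylated in normal tissue. Methyl groups for the reaction come from the diet through one-carbon metabolism, and early-life protein supply is one of the classic exposures with which promoter methylation has been studied. In methylated DNA immunoprecipitation (MeDIP), an antibody to 5-methylcytosine pulls down methylated fragments, which were labelled with Cy5 here and hybridised together with Cy3-labelled input DNA. A higher Cy5 to Cy3 ratio therefore stands for more methylated DNA in a kidney, an organ of many cell types whose shares these ratios do not separate. Positions are on the rat build rn4. No gene name stands beside a probe in the files used here, and no annotation of that build was used, so regions are given by position.

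Scans moved with the groups, and the Cy5 channel was dimmer on the mLP-CN arrays. The 12 arrays fell into 5 scans over 3 days, and mCN-CN replicate 3 was the only array of another group in the scan of the mLP-CN arrays. Over all probes, the median Cy5 brightness was 94.0 to 103 on the mLP-CN arrays and 120 to 153 on the other arrays. The median Cy3 brightness was not low on mLP-CN, with 151 to 166 there and 95 to 165 on the other arrays. Spots marked by the scanner software as outliers numbered 282 to 16964 an array, and the highest number was on mCN-CN replicate 3. Their part in the low mLP-CN values was not tested beyond the values given beside the results.

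The members were a broad group with modest differences. Over the 677 regions, the median log2 ratio in the authors' table was −0.13, −0.10 and −0.14 on the mLP-CN arrays. It was 0.10, 0.13 and 0.04 on the mCN-CN arrays, 0.13, 0.07 and 0.09 on the mLP-LP arrays, and 0.14, 0.15 and 0.15 on the mLP-HP arrays. mLP-CN thus lay apart from the other 3 groups, as the choice of the regions fixes. The medians of the other arrays ran from 0.04 to 0.15, and by these medians mCN-CN replicate 3 was the array nearest to mLP-CN. The median difference of mLP-CN from mCN-CN was −0.21 on the log2 scale (quartiles −0.26 and −0.16), beside −0.03 over all regions. The median difference of mLP-LP from mLP-CN was 0.21 (quartiles 0.16 and 0.26), and that of mLP-HP from mLP-CN was 0.25 (quartiles 0.18 and 0.34). Among the members, the mLP-HP mean was the farthest from mLP-CN by this median, and the single widest distance between these 2 groups was 0.96. This order depended on the values. After a loess curve of ratio against brightness was removed, the medians were 0.09 for mLP-LP and 0.06 for mLP-HP.

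**Figure D1:**
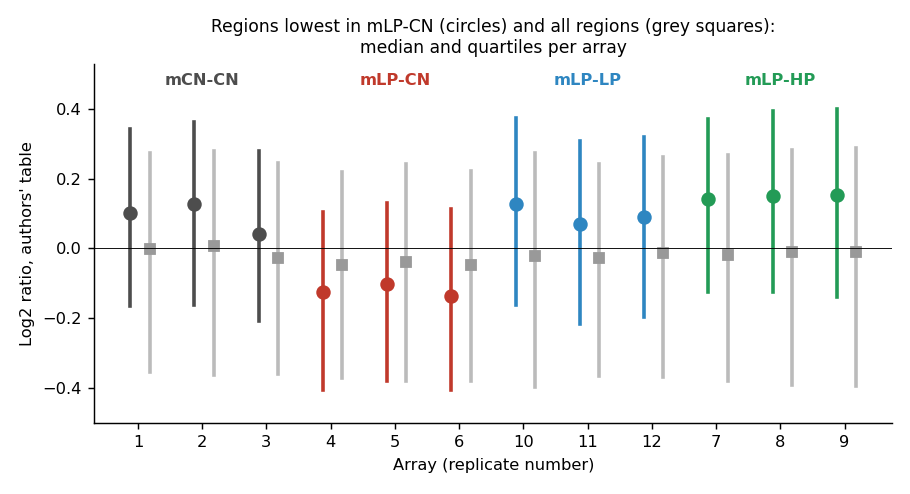
Log2 ratio in the authors' table (vertical axis) on each of the 12 arrays (horizontal axis, replicate numbers), as median (symbol) and quartiles (line) over the 677 regions lowest in mLP-CN (coloured circles) and over all 15396 regions (grey squares). The 3 mLP-CN medians of the chosen regions lie between −0.14 and −0.10 and the other 9 between 0.04 and 0.15, as the choice of the regions fixes, while the medians of all regions stay between −0.05 and 0.01.

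The distance between the highest mLP-CN array and the lowest of the other arrays ranged from 8.29e-06 to 0.24, with a median of 0.04, and it exceeded 0.1 in 86 of the 677 regions. The widest was at chr1:78340084-78341489, a region of 7 probes. There the mCN-CN arrays had log2 ratios of 0.23, 0.28 and 0.22, and the mLP-CN arrays −0.01, −0.03 and −0.06. The mLP-LP arrays had 0.36, 0.41 and 0.47, and the mLP-HP arrays 0.22, 0.28 and 0.34. The mLP-LP values were thus all above the mCN-CN values, which mLP-HP overlapped. In the authors' values all 7 probes had their lowest group mean in mLP-CN, and in the unsmoothed scanner values 4 of 7 did.

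A second region of chromosome 1, chr1:78999391-79001123 (9 probes), had a signal below 0 in mLP-CN and near 0 elsewhere. Its mLP-CN values were −0.36, −0.33 and −0.36, its mCN-CN values 0.05, 0.08 and −0.07, its mLP-LP values 0.02, −0.10 and −0.09, and its mLP-HP values 0.01, 0.03 and 0.13. The 3 groups other than mLP-CN overlapped there. At chr10:89177683-89179429 (10 probes), the mLP-CN values were −0.36, −0.37 and −0.41, against −0.04, 0.04 and −0.14 in mCN-CN, −0.04, −0.07 and −0.12 in mLP-LP, and −0.04, 0.04 and 0.14 in mLP-HP. Again the 3 other groups overlapped, and the spread within mLP-CN was narrower than in any of them. At chr11:17192498-17193757 (8 probes), mLP-CN had −0.17, −0.19 and −0.24, mCN-CN 0.10, 0.17 and 0.12, mLP-LP 0.16, 0.07 and 0.05, and mLP-HP 0.04, 0.12 and 0.16. All 8 of its probes had their lowest group mean in mLP-CN in the authors' values, and 6 of 8 in the scanner values.

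The remaining regions among the 8 with the widest distance did not share one order of the other groups. At chr17:5162741-5164510 (11 probes), a region with little pulled-down DNA, mLP-CN had −0.69, −0.71 and −0.70, mCN-CN −0.38, −0.45 and −0.43, mLP-LP −0.24, −0.29 and −0.48, and mLP-HP −0.16, −0.17 and −0.24. Here mLP-HP stood above mCN-CN on every array. At chr15:27160405-27161094 (5 probes), mLP-CN had −0.07, −0.12 and −0.00, mCN-CN 0.45, 0.31 and 0.46, mLP-LP 0.20, 0.56 and 0.24, and mLP-HP 0.36, 0.26 and 0.22. The mCN-CN mean was the highest of the 4 in this region, and 1 mLP-LP array exceeded it. At chr14:36536683-36538379 (10 probes), mLP-CN had −0.04, −0.06 and −0.12, mCN-CN 0.15, 0.27 and 0.24, mLP-LP 0.53, 0.33 and 0.44, and mLP-HP 0.35, 0.50 and 0.47. Both changed diets lay above all mCN-CN arrays, and all 10 probes had their lowest group mean in mLP-CN in the authors' values and 8 of 10 in the scanner values. At chr4:18831908-18833538 (10 probes), mLP-CN had −0.33, −0.37 and −0.40, mCN-CN −0.04, 0.06 and −0.15, mLP-LP −0.05, 0.19 and 0.19, and mLP-HP −0.04, −0.12 and −0.07.

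**Figure D2:**
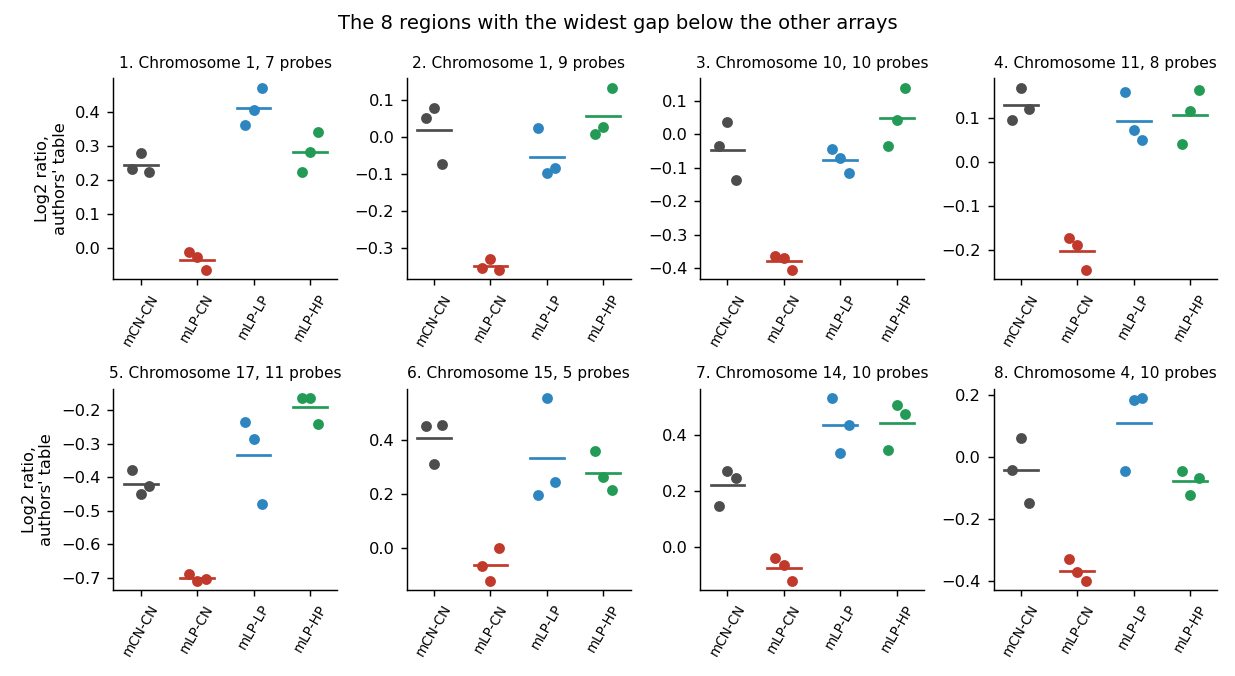
Log2 ratio in the authors' table (vertical axes, each with its own range) in the 8 regions with the widest distance between mLP-CN and the other arrays, with a point for each array and a line at the mean of the 3 arrays of a group. In every panel the mLP-CN points lie below the other 9, as the choice of the regions fixes, and the order of the other 3 groups is not the same in all panels.

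At the threshold the rule separated regions by less than the values can resolve. The members with the narrowest distance were chr6:108380782-108382419 (8.29e-06), chr1:207670217-207671984 (0.000163) and chr13:103081858-103083581 (0.000229). At chr6:108380782-108382419, the mLP-CN arrays had −0.35, −0.37 and −0.35, and mLP-LP had −0.12, −0.21 and −0.35, so 1 mLP-LP array met the mLP-CN values. In the other 2 a single array of mCN-CN or mLP-LP lay as close. The nearest regions outside were chr3:118892416-118894075, chr2:180243010-180254723 and chr5:74706950-74708650, where the highest mLP-CN array exceeded the lowest other array by less than 0.001. Membership near the threshold therefore rests on a difference far smaller than the spread between arrays of a group, whose median residual SD over the regions was 0.0766 in the scanner values.

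The members ranged widely in methylation signal. The highest mCN-CN mean was at chr7:138063342-138063874 (4 probes), with 0.91, 0.91 and 0.76 in mCN-CN, 0.57, 0.60 and 0.39 in mLP-CN, 0.92, 0.72 and 0.66 in mLP-LP, and 0.70, 0.92 and 0.94 in mLP-HP. The lowest was at chr5:78219259-78220789 (9 probes), with −2.61, −2.61 and −2.88 in mCN-CN, −3.01, −2.93 and −2.96 in mLP-CN, −2.70, −2.73 and −2.81 in mLP-LP, and −2.62, −2.62 and −2.71 in mLP-HP. In this region of very little pulled-down DNA, mCN-CN replicate 3 lay within 0.05 of the highest mLP-CN array. Divided into 4 equal parts by the mean log2 ratio, the regions held members at 3.53%, 4.70%, 4.83% and 4.52% from the lowest level to the highest, so membership varied little with level.

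The member with the most probes was chr10:65851074-65948944, a run of 494 probes, while most members were ordinary promoter tiles with a median of 10 probes and a span of 1671 bp (1664 bp over all regions). Its mLP-CN values of 0.01, 0.02 and 0.03 lay below 0.10, 0.11 and 0.08 in mCN-CN, 0.06, 0.04 and 0.05 in mLP-LP and 0.10, 0.09 and 0.11 in mLP-HP. In these values the mLP-LP mean was below every mCN-CN array, whereas in the scanner values the mLP-LP arrays (0.09, 0.09 and 0.08) lay among those of mCN-CN (0.06, 0.07 and 0.12). Of its 494 probes, 190 had their lowest group mean in mLP-CN in the authors' values and 191 in the scanner values. Members lay on every autosome, from 14 of 497 regions (2.82%) on chromosome 14 to 58 of 1054 (5.50%) on chromosome 7. Regions next to each other on a chromosome were both members in 36 of 15376 pairs (0.234%), with a median distance of 46669 bp. Members with other regions between them were not counted. Some members lay close together, as at chr1:94209627-94211300, chr1:94225900-94227589 and chr1:94253051-94254725. Grouping beyond adjacent pairs was not tested.

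The array nearest to mLP-CN was not the same in all members. In the authors' table, mCN-CN replicate 3 was the lowest of the other 9 arrays in 217 members (32.1%), beside 19.1% over all regions. mLP-LP replicate 11 was the lowest in 139 members (20.5%), beside 17.5%. In the scanner values mCN-CN replicate 3 was the lowest in 192 members (28.4%, beside 15.6%), and mCN-CN replicate 1, from another scan, in 162 (23.9%, beside 11%). Against mCN-CN replicate 3 (same scan), the median difference of mLP-CN over the members was −0.15 (quartiles −0.22 and −0.10), beside −0.01 over all regions. Against mCN-CN replicates 1 and 2, scanned apart on the same day, it was −0.23 (quartiles −0.30 and −0.16), beside −0.04. The difference within the scan was therefore the smaller one in the authors' values. In the scanner values both were −0.17, beside −0.048 (same scan) and −0.0045 (other scan) over all regions. With outlier spots kept, an alternative chosen after seeing the data, they were −0.13 and −0.17, beside 0.0008 and −0.0074. None of the mLP-HP and mLP-LP arrays was scanned on the day of the mLP-CN arrays, so for these groups the diet and the scan cannot be told apart.

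The members were unevenly spread over features of the array that the rule did not use. Their probes were short, with a median of the mean probe length of 46.7 bases (quartiles 45.8 and 48.1), beside 48.3 over all regions and 52.2 in the regions highest in mLP-CN. The regions highest in mLP-HP had nearly the same probe length, 47 bases. Where array designs vary probe length to even out melting temperature, shorter probes hold more G and C bases; the base composition of these probes was not analysed here. Divided into 4 parts by probe length, 8.67% of the regions with the shortest probes were members, then 5.07%, 2.69% and 1.09% of those with the longest. For the regions highest in mLP-CN the order was the opposite, with 0.641%, 1.23%, 2.25% and 6.27%.

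The members were also bright. A median of 87.5% of their spots were well above background in both channels, beside 75% over all regions and 83.3% in the regions highest in mLP-HP. Divided by mean spot brightness, 0.338% of the dimmest part, 1.74%, 4.47% and 11% of the brightest part were members, which places 425 of the 677 in the brightest part. Regions highest in mLP-CN ran from 7.79% in the dimmest part to 0.0520% in the brightest. In the brightest part the median of mLP-CN minus the mean of the other groups was −0.15 over all regions and −0.24 over the members, whereas in the dimmest part it was 0.12 over all regions and −0.10 over the members. A shift of mLP-CN with brightness was thus present over all regions, members included, and its part in the members' low values was not tested. Brightness was measured on the same arrays as the ratio, while probe length is a property of the design.

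**Figure D3:**
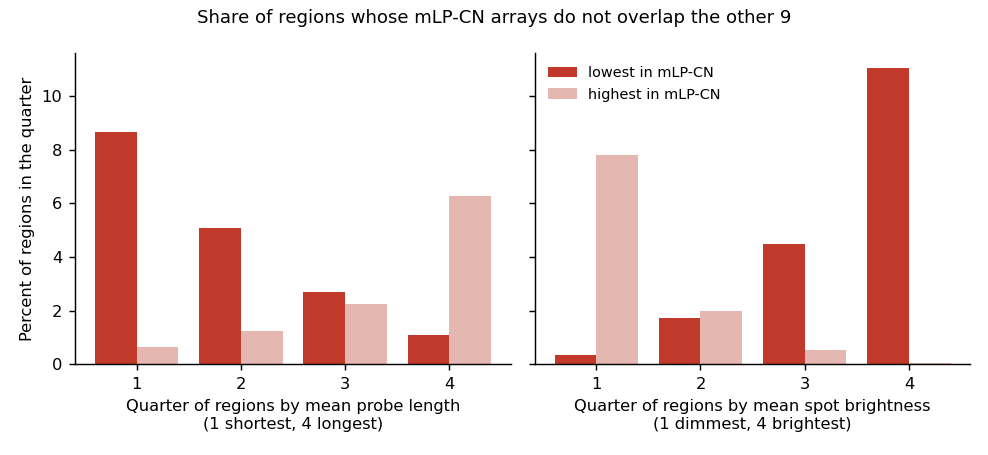
Percent of regions (vertical axis) in which the mLP-CN arrays lay below (dark bars) or above (light bars) all other arrays, for 4 parts of the regions by mean probe length (left) and by mean spot brightness (right). The share of regions lowest in mLP-CN goes from 8.67% at the shortest to 1.09% at the longest probes and from 0.338% at the dimmest to 11% at the brightest spots, and the share of regions highest in mLP-CN goes the other way.

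Within the regions the difference was spread over the probes. Of the 7562 probes in members, 1084 (14.3%) lay on the mLP-CN arrays below all other arrays on their own in the authors' table, beside 3.29% of the probes of all regions. The mean of mLP-CN was below that of each other group in 65.6% of the members' probes. In 186 members no probe was separate on its own, and in 48 members every probe had its lowest group mean in mLP-CN. The authors smoothed neighbouring probes, so probes of a region are not independent of each other. In log2 ratios computed from the scanner intensities without smoothing, 1171 of the members' probes (15.5%) were separate, beside 7.0% in all regions. There the mean of mLP-CN was below that of each other group in 53.6% of the members' probes, and every probe was so in 3 members.

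By distance from the centre of the region, the scanner log2 ratios were low in mLP-CN in every window. In 10 windows of 200 bp from −1000 to 1000 bp, the median difference of mLP-CN from mCN-CN over members' probes lay between −0.21 and −0.16, beside −0.04 to 0.00 in all regions. The difference from mLP-LP lay between −0.28 and −0.20, and that from mLP-HP between −0.33 and −0.21. The members were chosen by their mean over all probes, so a low median over the members is favoured in every window. Within single regions probes ran both ways: in chr1:207670217-207671984 the difference of mLP-CN from the mean of the other arrays went from −0.77 to 0.63 among its 12 probes.

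**Figure D4:**
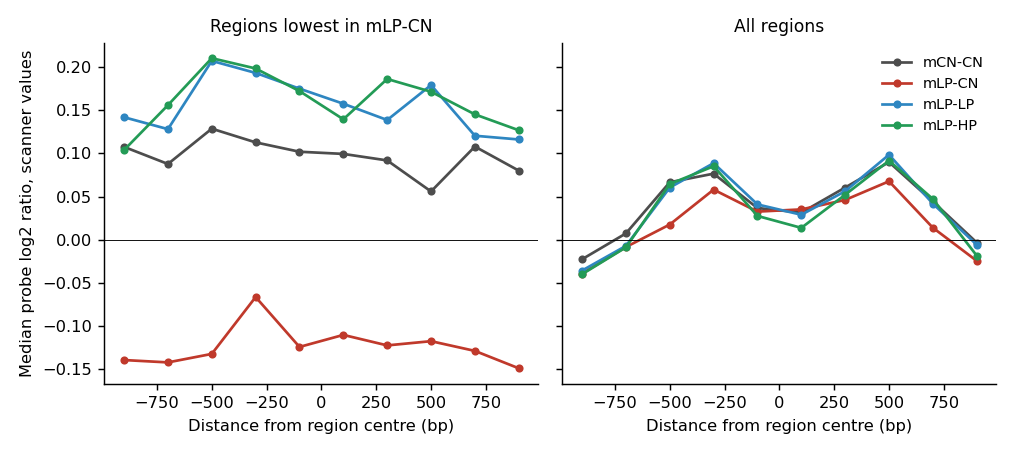
Median log2 ratio of the probes from the scanner values (vertical axis) in windows of 200 bp by distance from the centre of the region in bp (horizontal axis), for each of the 4 groups, in the regions lowest in mLP-CN (left) and in all regions (right). In the left panel the mLP-CN line lies below the other 3 at every distance, as the choice of the regions favours, and in the right panel the 4 lines run close together.

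The channels were then read apart. In the immunoprecipitated channel, after centring and quantile normalisation, mCN-CN replicates 1, 2 and 3 lay above the mLP-CN mean by medians of 0.02, 0.02 and 0.23 over the members, beside −0.01, −0.01 and 0.17 over all regions. In the input channel the same medians were −0.02, −0.03 and 0.11, beside −0.00, −0.01 and 0.12. Of the mCN-CN arrays, replicate 3 was thus the 1 that lay clearly above mLP-CN in a single channel, and there all regions were raised in both channels. The mLP-LP arrays lay above the mLP-CN mean by 0.12, 0.17 and 0.07 in the immunoprecipitated channel, beside 0.04, 0.07 and 0.00 over all regions. In the input they did so by 0.02, 0.05 and −0.01, beside 0.03, 0.05 and 0.00. The mLP-HP arrays lay above the mLP-CN mean by 0.13, 0.08 and 0.12 in the immunoprecipitated channel, beside 0.05, 0.01 and 0.04 over all regions. In the input the medians were 0.01, −0.03 and −0.02, beside 0.03, 0.00 and 0.02. All mLP-CN arrays lay below the other arrays in the immunoprecipitated channel in 92 members (13.6%), beside 4.23% of all regions, and in the input channel in 7 members (1.03%), beside 2.05%. For each of the mLP-LP and mLP-HP arrays the members' median was farther from mLP-CN in the immunoprecipitated channel than in the input, and for mCN-CN replicates 1 and 2 both channels were within 0.05 of mLP-CN. Before normalisation, the median Cy5 brightness of the members' probes was 154, 161 and 147 on the mLP-CN arrays and from 202 to 284 on the others, so the whole pulled-down channel of mLP-CN was dim.

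The separation depended on how the ratios were normalised. In scanner ratios with background correction and quantile normalisation, 536 of the 677 members (79.2%) kept all mLP-CN arrays below the others, beside 1352 of all regions (8.78%). With median centring in place of quantile normalisation, 558 members (82.4%) did, beside 29.2%, and with the median over probes in the authors' values 245 members (36.2%), beside 3.81%. In the scanner software's own processed signals, 158 members (23.3%) did, beside 3.11%. After a loess curve of ratio against brightness had been removed from each array, with no quantile normalisation, 116 members (17.1%) did, beside 2.78%, and the median difference of mLP-CN from mCN-CN went from −0.17 to −0.07. With loess alone, mLP-CN lay below mCN-CN replicate 3 in 620 members, beside 66.7% of all regions. The median there was −0.12, beside −0.05 over all regions, and against mCN-CN replicates 1 and 2 it was −0.04, beside 0.004. The members kept in all 3 versions numbered 58 (8.57%), beside 0.539% of all regions, and 39 of the 58 (67.2%) were among the regions with the shortest probes, which held 338 of the 677 members (49.9%). Of the 8 regions with the widest distance, chr14:36536683-36538379 was the 1 kept after loess. All 8 were kept in the scanner ratios with quantile normalisation, and 6, without chr11:17192498-17193757 and chr17:5162741-5164510, in the processed signals.

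The rule did not compare the other 3 groups among themselves, but it required each of their arrays to lie above every mLP-CN array. The scanner log2 ratios come from the same arrays, so the contrasts below are not free of that choice. They were tested with limma on these ratios over all 15396 regions with Benjamini-Hochberg adjustment. For continued restriction (mLP-LP against mCN-CN), limma called 0 members in either direction at an adjusted p under 0.05, beside 0.0065% of all regions higher, and the smallest adjusted p among the members was 0.179. At an unadjusted p under 0.05, 117 members (17.3%) were higher and 4 lower in mLP-LP, beside 6.07% and 5.64% of all regions. These counts depended on the values. With the authors' values, 24 members were higher (3.55%) and 27 lower, beside 5.78% of all regions higher. Without background correction, 24 members were higher (3.55%) and 26 lower, beside 6.13% of all regions higher. In both, the members' share higher was thus below that of all regions. After loess with quantile normalisation, 45 members were higher (6.65%) and 20 lower, beside 5.59% of all regions higher. With scan as a random block, 52 members were higher (7.68%) and 2 lower, beside 3.32% of all regions higher. Without these changes, the median log2 difference over the members was 0.06, with 537 of 677 above 0, beside −0.00 over all regions. After loess alone the median was 0.02, with 410 above 0. In the authors' table it was −0.00.

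Between mLP-HP and mCN-CN both the maternal and the offspring diet differed, so this contrast does not isolate the added protein. In it, limma called 116 members higher (17.1%) and 0 lower in mLP-HP, beside 8.54% of all regions higher and 8.28% lower. At an unadjusted p under 0.05, 210 members (31.0%) were higher, beside 16.3% of all regions, and 8 lower, beside 17.3%. The median difference over the members was 0.08, with 532 of 677 above 0, beside −0.01 over all regions. In the authors' table it was 0.05, with 450 above 0, and after loess alone −0.01, with 313 above 0, beside −0.02 over all regions, so the direction of the median turned with that processing. With quantile normalisation after loess it was 0.01, with 369 above 0. Read by brightness, 21.4% of the members in the brightest part of the regions were called higher (91 of 425), beside 20.5% of all regions in that part. The corresponding shares were 11% (19 of 172) beside 8.52% in the next part and 7.46% (5 of 67) beside 3.66% in the one after it. Of the 116 calls, 91 thus lay in the brightest part, where the members' share was near that of all regions. By probe length, from the shortest to the longest, 18%, 20.6%, 10.7% and 9.52% of the members were called higher, beside 15.8%, 9.78%, 5.85% and 2.68% of all regions in the same part, so within these parts the members' share was the higher one. After loess with quantile normalisation, 36 members were called higher (5.32%) and 20 lower (2.95%), beside 4.77% and 4.94% of all regions. With scan as a random block, 0 members were called, beside 0.039% of all regions higher and 0.052% lower, and the mCN-CN and mLP-HP arrays were scanned on different days, so the day and the diet cannot be told apart.

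**Figure D5:**
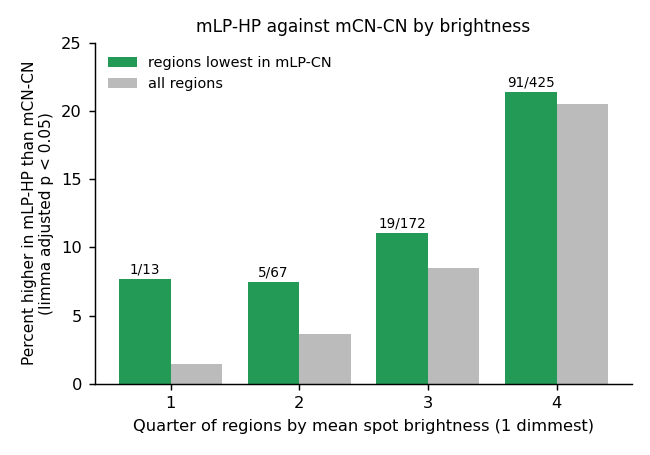
Percent of regions called higher in mLP-HP than in mCN-CN (vertical axis; limma, adjusted p under 0.05, scanner log2 ratios) in 4 parts of the regions by mean spot brightness (horizontal axis, dimmest first), for the regions lowest in mLP-CN (green, with the number called of the number in the part) and all regions (grey). In the brightest part the shares are 21.4% and 20.5%.

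Among these calls the largest difference was at chr1:146544892-146546592 (9 probes). Its scanner log2 ratios were −0.53, −0.52 and −0.62 in mCN-CN and 0.00, −0.01 and −0.10 in mLP-HP, with −0.71, −0.73 and −0.76 in mLP-CN and −0.13, −0.57 and −0.54 in mLP-LP. The difference of mLP-HP from mCN-CN was 0.52 (SE 0.08, limma adjusted p = 0.00347), and over the alternatives the adjusted p ranged from 0.00119 to 0.0635, the highest with scan as a random block. The next was chr18:16237958-16239285 (5 probes), with −2.05, −1.95 and −2.20 in mCN-CN, −1.52, −1.51 and −1.65 in mLP-HP, −2.33, −2.27 and −2.35 in mLP-CN and −1.40, −2.01 and −2.04 in mLP-LP. There the difference was 0.51 (SE 0.11, limma adjusted p = 0.00921, range 0.00755 to 0.122 over the alternatives, with 0.0608 after loess and 0.122 with the scan block). In both regions mLP-LP replicate 10 lay with the mLP-HP arrays, 2 of which shared its scan, while mLP-LP replicates 11 and 12, scanned on another day, lay with mCN-CN. Of the 8 regions with the widest distance, chr14:36536683-36538379 was called higher in mLP-HP by 0.23 (SE 0.06, limma adjusted p = 0.0120, with 0.163 in the scan block fit and 0.178 after loess, where the difference was 0.11) and chr17:5162741-5164510 by 0.22 (SE 0.06, limma adjusted p = 0.0242, with 0.254 in the scan block fit and 0.792 after loess, where the difference was 0.03).

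Between the changed diets (mLP-HP against mLP-LP), limma called 0 members, beside 0.013% of all regions higher in mLP-HP, with a smallest adjusted p of 0.108. At an unadjusted p under 0.05, 64 members (9.45%) were higher and 25 lower in mLP-HP, beside 9.57% and 10.2% of all regions. The members' shares were thus not above those of all regions. The median difference over the members was 0.02 in the scanner ratios, and it was 0.01 within the scan that held mLP-HP replicates 8 and 9 and mLP-LP replicate 10. Without mLP-LP replicate 10, the fit called 92 members, 64 higher (9.45%) and 28 lower (4.14%) in mLP-HP, beside 10.5% and 11.1% of all regions.

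The means of the 3 groups other than mLP-CN were ordered without regard to mLP-CN. In the scanner ratios their order was mCN-CN, mLP-LP and mLP-HP from low to high in 328 members (48.4%), beside 24.5% of all regions. The next most frequent order, with mLP-LP above mLP-HP, was found in 137 members (20.2%), beside 9.89%. In the authors' table the most frequent order was the same one, in 209 members (30.9%, beside 20.1%), and the order with mLP-LP below mCN-CN followed in 182 (26.9%, beside 18.4%). The place of mLP-LP relative to mCN-CN thus depended on which values were read.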

How the data were processed

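Kidney DNA was immunoprecipitated, amplified and hybridised on a rat RefSeq promoter array by a contract service. The deposited scanner intensities (Cy5 immunoprecipitated, Cy3 input, same orientation on all 12 arrays) are from Agilent Feature Extraction. The authors' table holds log2 values which, per the study's methods, were median-centred, quantile-normalised and smoothed with Ringo, limma and MEDME; the file itself states no scale, and smoothing can spread a difference over neighbouring probes. The table chose the regions. From the scanner files, spots flagged as outliers were set missing, the background was corrected by normexp (offset 50), and log2 ratios were median-centred, quantile-normalised and averaged over the probes of a region. limma 3.58.1 in R 4.3.3 was fitted to all 12 arrays in 4 groups (8 residual degrees of freedom), with an adjusted p threshold of 0.05. The fit was also run on simulated data with independent noise on each array and no scan effect. In the real data the consensus correlation within a scan was 0.533, so the simulation does not cover that setting. Arrays have no sequencing depth, and the number of arrays limits the precision.

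The members and lists were chosen with earlier results of these data known. The regions named are the 8 with the widest distance, the 3 narrowest, the 3 just outside, the 2 largest called differences of each direction and contrast, the one with the most probes and those with the highest and lowest mCN-CN mean, given at least 1 probe well above background on all arrays. Loess values are given alone, or followed by quantile normalisation in the fits. Alternatives were other background corrections, normalisations, filters, summaries and scan blocks, and leaving out each array.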

Additional observations from a re-analysis of the deposited data

How the results depend on the processing

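The number of regions lowest in mLP-CN was 677 in the authors' table, 1352 in the scanner ratios, 428 after loess alone and 1113 when probes not above background on every array were left out. Leaving out 1 array at a time gave 691 to 1243, with 1243 without mCN-CN replicate 3, 1225 without mLP-CN replicate 5 and 1050 without mLP-CN replicate 4; with fewer arrays the rule is easier to meet. The count of members called between mLP-HP and mCN-CN was 116, all higher (17.1%, beside 8.54% of all regions). Without background correction it was 45 (43 higher, 2 lower, or 6.35% and 0.295%, beside 4.79% and 6.13%). With median centring in place of quantile normalisation it was 294 (286 higher, 8 lower, or 42.2% and 1.18%, beside 20.7% and 15.3%). After loess with quantile normalisation it was 56 (36 higher, 20 lower, or 5.32% and 2.95%, beside 4.77% and 4.94%). In the authors' table it was 49 (47 higher, 2 lower, or 6.94% and 0.295%, beside 5.67% and 7.68%). With the median over probes it was 52 (47 higher, 5 lower, or 6.94% and 0.739%, beside 3.78% and 3.22%). With scan as a random block it was 0, beside 0.039% and 0.052%. Leaving out 1 array gave 33 to 100, and the share of all regions moved too. Without mLP-HP replicate 9, 33 members were called, all higher (4.87%, beside 2.18% of all regions). Without replicate 8 it was 57 (8.42%, beside 3.82%), and without replicate 7 it was 67 (9.90%, beside 3.84%), again all higher. Without mCN-CN replicate 1 it was 69, all higher (10.2%, beside 5.06%). Between mLP-HP and mLP-LP the count of 0 became 75 with median centring (57 higher, 18 lower, or 8.42% and 2.66%, beside 6.77% and 10.1% of all regions). Leaving out 1 array gave 0 to 92, the latter without mLP-LP replicate 10 (64 higher, 28 lower, or 9.45% and 4.14%, beside 10.5% and 11.1%). Between mLP-LP and mCN-CN it was 0 in every alternative run. The median of mLP-CN minus mCN-CN replicate 3 was −0.17, and −0.15 in the authors' table, −0.21 with median centring, −0.11 after loess with quantile normalisation (−0.12 after loess alone), −0.20 without dim probes, and −0.13 with outlier spots kept, an alternative chosen after seeing the data; leaving out 1 mLP-CN array gave −0.18 to −0.17. The causes were not tested. No paired analysis was possible because the groups share no replicate numbers.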
